A study of Mus musculus with 28 samples.

Results

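The genes described here are 10 genes of sugar and nutrient digestion and uptake at the brush border of the small intestine: Slc5a1, Slc2a2, Slc2a5, Sis, Lct, Mgam, Treh, Alpi, Anpep and Slc15a1. The list is one of gene names and its rule uses no measured value, but it was drawn up with earlier results of these data known. All 10 were found among the 31179 gene symbols of the duodenum count table and among the 30227 of the kidney table. Duodenal and kidney cortex RNA was taken from female mice aged 8 weeks. The wild-type group (WT, Vdr+/+) had 6 libraries per tissue, the knockout group (KO, Vdr-/-, to which the file headers add the word demay) had 4, and the AF2 group (Vdr AF2, labelled delta AF2) had 4. Vdr encodes the vitamin D receptor, and activation function 2 (AF2) is the face of the receptor that coactivators bind once hormone is bound. Every group, WT included, ate the diet TD.96348, which is rich in calcium, phosphate and lactose and is called a rescue diet in the file headers, so no comparison of diets can be made. The design sets a knockout of the receptor against a receptor changed in AF2. Neither the labels nor the headers give the part of Vdr that each allele removes, or that the replicates of a group are separate animals. The p-values then measure only the spread between these samples.

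The brush border is the carpet of microvilli on the absorptive cells of the villus. Starch fragments and disaccharides are split there by enzymes anchored in the membrane: sucrase-isomaltase (Sis) and maltase-glucoamylase (Mgam) act on starch fragments and sucrose, lactase (Lct) splits lactose into glucose and galactose, and trehalase (Treh) splits trehalose. Glucose and galactose enter the cell with sodium through SGLT1 (Slc5a1), fructose enters through GLUT5 (Slc2a5), and GLUT2 (Slc2a2) passes sugars on toward the blood. Aminopeptidase N (Anpep) trims peptides, PepT1 (Slc15a1) takes up di- and tripeptides, and intestinal alkaline phosphatase (Alpi) removes phosphate groups at the same membrane. The cortex of the kidney also holds a brush border, that of the proximal tubule, where filtered sugars, peptides and amino acids are reabsorbed.

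The promoters of 4 of these genes are shown because Slc5a1, Sis and Mgam had levels that followed one another most closely across the duodenal libraries, while Alpi had another order of genotypes. Each is the stretch of 250 bases before the gene's start, from RefSeq on GRCm38.p6, written 5′ to 3′ on the gene's strand. Capitals mark the matches to any of 6 motifs: an HNF1 core (GTTAAT), a CDX site (either TTTATG or the variant TTTATT), the site of GATA factors (either AGATAA or the variant TGATAA), a hexamer of the vitamin D receptor (either AGGTCA or the variant AGTTCA), the E-box CACGTG, and a TATA box (TATAAA). All were searched on both strands except TATAAA, which was searched on the gene's strand only. Gene positions here and below are those of GENCODE vM21 on the same build (mm10). Slc5a1 lies at chr5:33104219-33162870 on the plus strand and its window at chr5:33103969-33104218. Sis lies at chr3:72888557-72967863 on the minus strand and its window at chr3:72967864-72968113. Mgam lies at chr6:40628831-40769123 on the plus strand and its window at chr6:40628581-40628830. Alpi lies at chr1:87098002-87101606 on the minus strand and its window at chr1:87101607-87101856.
Slc5a1: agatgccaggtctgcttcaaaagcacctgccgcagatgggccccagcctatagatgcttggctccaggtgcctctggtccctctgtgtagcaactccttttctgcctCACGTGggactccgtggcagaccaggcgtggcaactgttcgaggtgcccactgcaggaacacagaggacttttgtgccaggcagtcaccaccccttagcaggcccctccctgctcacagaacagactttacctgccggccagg
Sis: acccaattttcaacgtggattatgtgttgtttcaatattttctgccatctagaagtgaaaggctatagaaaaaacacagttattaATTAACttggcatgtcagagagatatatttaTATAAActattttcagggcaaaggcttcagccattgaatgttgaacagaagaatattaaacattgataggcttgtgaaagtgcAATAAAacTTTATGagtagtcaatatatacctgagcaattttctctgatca
Mgam: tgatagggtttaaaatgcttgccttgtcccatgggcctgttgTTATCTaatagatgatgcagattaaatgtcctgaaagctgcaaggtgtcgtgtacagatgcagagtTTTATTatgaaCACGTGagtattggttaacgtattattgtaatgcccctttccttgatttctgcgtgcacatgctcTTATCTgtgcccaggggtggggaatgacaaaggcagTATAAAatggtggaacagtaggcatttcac
Alpi: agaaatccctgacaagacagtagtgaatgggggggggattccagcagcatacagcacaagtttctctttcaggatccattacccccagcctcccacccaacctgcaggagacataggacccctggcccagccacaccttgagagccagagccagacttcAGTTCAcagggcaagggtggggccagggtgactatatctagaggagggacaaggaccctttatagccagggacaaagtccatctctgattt

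The HNF1 core was found in the window of Sis alone among the 10 genes, 165 bases upstream of its start, and in 6.43% of all 32851 promoter windows of this length. CDX sites were found in Sis (51 and 43 bases upstream), in Mgam (142) and in Lct, against 25.5% of all windows. GATA sites were found in Mgam (208 and 66 bases upstream), Lct and Slc2a2, against 16.6% of all windows. The receptor hexamer was found in Alpi (91 bases upstream), Slc2a2, Slc2a5, Treh and Slc15a1, against 24.2% of all windows. CACGTG was found in Slc5a1 (143 bases upstream) and Mgam (131), against 6.02%, and TATAAA in Mgam (30) and Sis (134), against 7.59%. The window of Anpep held none of these motifs. That window, at chr7:79848211-79848460, follows the RefSeq start and lies within the GENCODE span of Anpep. The window of Slc2a5, at chr4:150119094-150119343, runs past its GENCODE start. These are matches of letters only, and say nothing of what binds there.

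Library totals were 3713352 to 25181916 counts in duodenum and 3725648 to 6492228 in kidney. Every deposited count was even, so a read is taken here as 2 counts. Vdr was 267 to 646 CPM (the normalised count used unless stated otherwise, a gene's share of the library's TMM-scaled total) in the WT duodenum, 97.3 to 120.2 in KO and 362 to 432 in AF2. In KO Vdr fell by 2.14 on the log2 scale in duodenum and fell by 3.54 in kidney, with edgeR adjusted p of 2.54e-05 and 1.62e-10. As a check of the tissue labels, all 10 villus enterocyte markers were more abundant in the WT duodenum than in the WT kidney, and all 8 markers of other nephron segments were less abundant there, 3 of them at 0. Of these markers 4 and 0 passed the filter on low counts in the other tissue, so the directions are a description. The library codes in the labels form 3 unbroken runs in each tissue, the first with WT 1 and 2, the second with WT 3 and 4 and all KO libraries, the third with WT 5 and 6 and all AF2 libraries. The labels do not call these runs batches.

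One library stood apart for its low levels of these genes. The duodenal library WT 4 had the lowest level of the 6 WT libraries for 7 of the 10 genes (Slc5a1, Slc2a2, Sis, Mgam, Treh, Alpi and Slc15a1), and its median rank over the 10 genes, counted from the highest, was 12 of 14 libraries. Its summed level of 10 villus enterocyte markers was 7648 CPM, the lowest in WT, where the other WT libraries had 12565 to 18260. Vdr was also lowest there among the WT libraries, at 267 CPM. Of the 14 duodenal libraries WT 4 had the highest sum of gastric and Brunner gland markers, 39999 CPM, with KO 4 next at 31458. It also had the lowest sum of distal small intestine markers, 483 CPM. WT 6 lay at the other end, with the highest sum of the 10 genes (24450 CPM) and of fructose and glucose metabolism genes (16719 CPM). The edgeR calls of the 10 genes against WT in duodenum are given with and without WT 4. With the runs of library codes as a block, no fit was made without WT 4. In that block, in either tissue, KO is set against WT 3 and WT 4 only, and AF2 against WT 5 and WT 6 only. The KO values there thus rest on 2 WT libraries, 1 of them WT 4 in duodenum. The AF2 values in duodenum rest on WT 5 and WT 6, the libraries with the highest levels of the 10 genes (median rank 2 for each). Since WT 4 was singled out in part by its low levels of these same genes, larger differences from WT without it follow in part from that choice and are a description.

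The 10 genes were detected in every duodenal library. They passed the filter on low counts there, and 6 of them passed it in kidney. Of the 6 genes that passed in both tissues, all were higher in the WT duodenum than in the WT kidney by edgeR, as were 35.7% of the 14944 genes tested over both tissues. The other 4 entered that test only through the duodenum, where they are high, and are given as a description. Sis and Alpi had 0 reads in all 14 kidney libraries, which over 34226157 reads allows up to 0.0877 CPM at a floor of 3 reads. With that floor set over the 14683874 WT kidney reads, Sis was at least 16799-fold and Alpi at least 19990-fold higher in the WT duodenum. Lct had 1 read in the kidney, in WT, and Slc15a1 had 23, of which 11 were in WT. The ratio of WT duodenum to WT kidney was 5149 for Lct (95% interval 924 to 203399) and 169 for Slc15a1 (94.2 to 338), intervals that cover counting error only. These floors, folds and ratios use reads pooled over libraries without TMM scaling. Of the 25184026 WT duodenal reads, 12590958 came from WT 2, which therefore weighs most.

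The other members were measured well in both tissues. Mgam stood at 5714 ± 1325 CPM (SD, n = 6) in the WT duodenum and at 106 ± 17.2 CPM (SD, n = 6) in the WT kidney, a log2 difference of 5.68 (SE 0.16). Slc5a1 had 3787 ± 925 CPM (SD, n = 6) and 109 ± 11.6 CPM (SD, n = 6), a log2 difference of 5.06 (SE 0.17). The gap was narrower for Slc2a5 (log2 difference 2.95), Treh (2.20) and Slc2a2 (2.03), and narrowest for Anpep, at 171 ± 71.6 CPM (SD, n = 6) in duodenum and 95.3 ± 15.4 CPM (SD, n = 6) in kidney (log2 difference 0.77, SE 0.22, edgeR adjusted p = 0.00378). Aminopeptidase N is a known enzyme of both brush borders.

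Between genotypes, all 10 genes had a lower mean in both mutants than in WT in the duodenum, and none of them passed the edgeR test over all genes with all 14 libraries in the fit. For KO against WT the 10 log2 fold changes ran from -0.997 (Slc5a1) to -0.33 (Treh), with a median of -0.48, where the median of all 13302 genes tested was -0.004 and 50.4% of them lay below 0. The number of the 10 called was 0, against 0.0226% of all genes (3 genes). At an unadjusted p under 0.05 there were 5 of the 10, against 11.4% of all genes (1519). For AF2 against WT they ran from -0.80 (Alpi) to -0.07 (Slc15a1), with a median of -0.40, 0 called against 0.0677% of all genes (9 genes), and 4 at an unadjusted p under 0.05 against 11.8% (1564). The median of all genes in AF2 was 0.0002. With the runs of library codes, described above, as a block, the median of the 10 was -0.17 in KO, with 9 of 10 below 0, and -0.58 in AF2, with 10 of 10 below 0. Those values set KO against WT 3 and 4 alone and AF2 against WT 5 and 6 alone, so they depend on which WT libraries are kept. DESeq2 called 3 of the 10 in each comparison, against 118 of 7352 genes (1.61%) for KO and 152 of 7352 (2.07%) for AF2. The 2 comparisons share the 6 WT libraries, so a low or high WT library moves both.

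Leaving out each library in turn, the count of members called moved most without WT 4. Without it, edgeR called Slc5a1, Slc2a2, Sis and Mgam lower in KO, among 229 of 13156 genes called (1.74%), and Slc5a1, Sis, Mgam and Alpi lower in AF2, among 217 (1.65%). Slc5a1 alone was also called lower in KO without WT 6 (0.0606% of all genes called), without KO 2 (0.0955%) and with the counts divided by 2 (0.0704%). The same held with the replicate number as a block (0.015%). With all 14 libraries and no filter on low counts, edgeR called Slc5a1, Slc2a2, Sis and Mgam lower in KO (0.827%). In AF2 it then called Slc5a1, Sis and Alpi lower (0.923%). The median log2 fold change of the 10 was -0.57 in KO and -0.48 in AF2 without WT 4. It was -0.39 and -0.29 without WT 5, and -0.42 and -0.27 without WT 6. With the runs of library codes as a block, none of the 10 was called in KO (0.00752% of all genes were) and Slc5a1 alone in AF2 (0.985%).

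**Figure D1:**
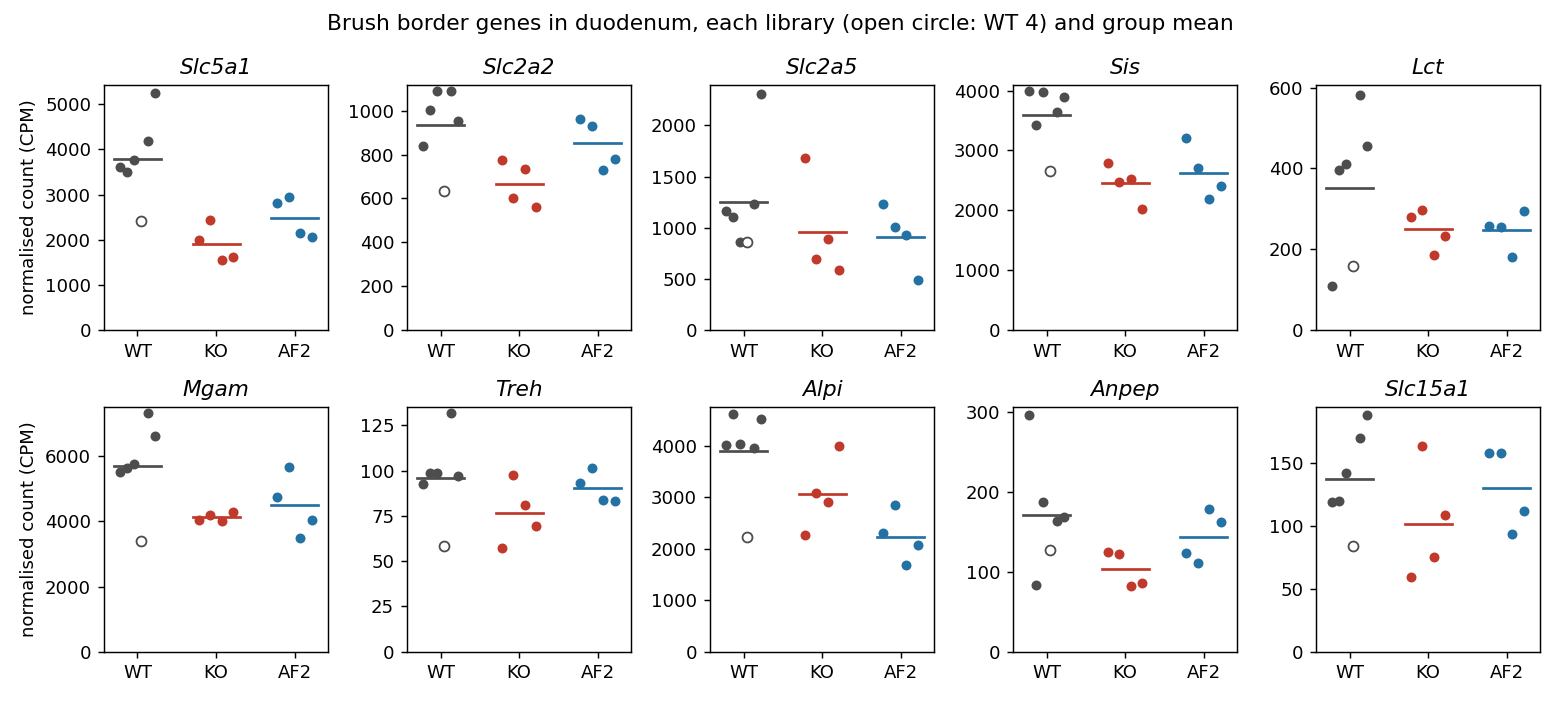
Normalised count (CPM, linear axis from 0) of each of the 10 genes in the duodenum, 1 point per library, for 6 WT, 4 KO and 4 AF2 libraries, with a line at each group mean and WT 4 as an open circle. WT 4 lies below the other WT points for 7 genes, for Mgam below every mutant point as well, and no gene separates a mutant from all 6 WT libraries.

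**Figure D2:**
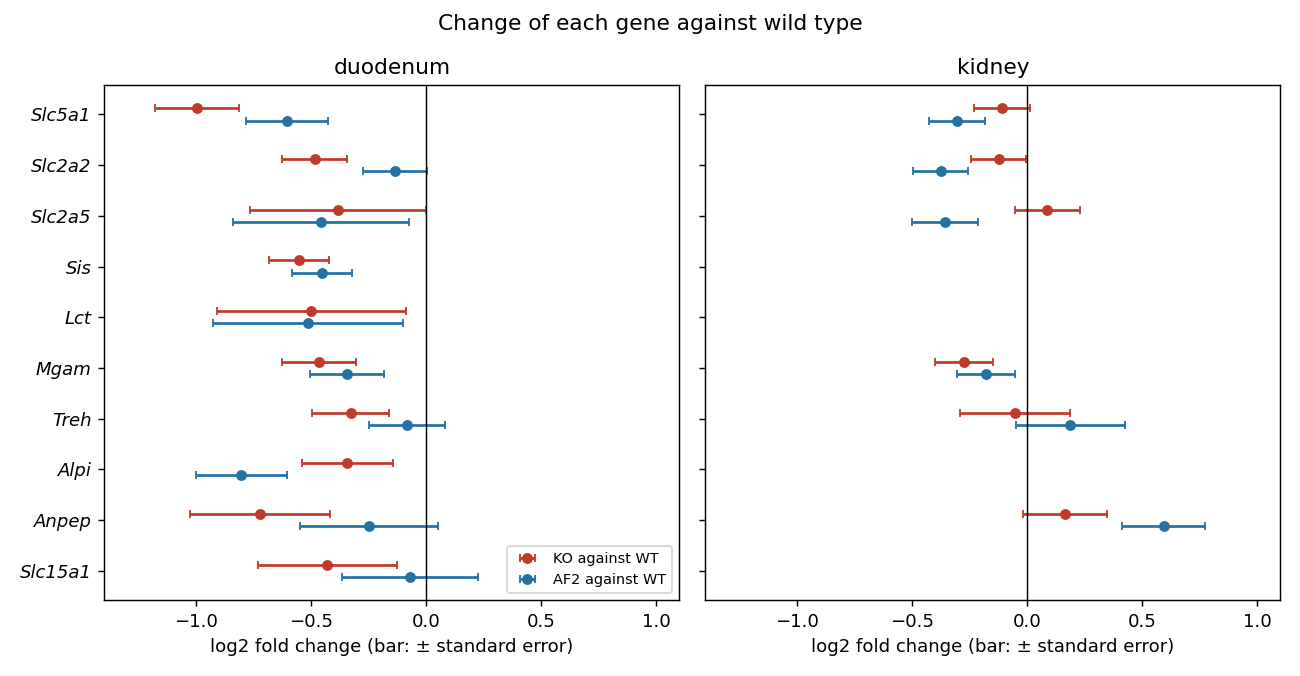
edgeR log2 fold change against WT with its standard error (bar) for KO and AF2, in duodenum (10 genes) and kidney (the 6 genes that passed the filter). In duodenum all 20 points lie below 0; in kidney they lie on both sides, with Anpep in AF2 farthest above it.

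Slc5a1, the sodium-coupled carrier that brings glucose and galactose into the cell, had the lowest adjusted p of the 10 genes in KO. Its level in the WT duodenum was 2418 (lowest), 3683 (median) and 5245 (highest) CPM, and the KO libraries had 2002, 2427, 1542 and 1618 CPM. The AF2 libraries had 2803, 2939, 2147 and 2070.3 CPM. All mutant libraries lay below 5 of the 6 WT libraries, and WT 4, at 2418 CPM, lay below KO 2 and below AF2 1 and 2. The means were 3787 ± 925 CPM (SD, n = 6), 1897 ± 407 CPM (SD, n = 4) and 2489.7 ± 445 CPM (SD, n = 4), in the order WT, KO, AF2. The log2 fold change was -0.997 in KO (SE 0.18, edgeR adjusted p = 0.0572, unadjusted 3.01e-05) and -0.61 in AF2 (SE 0.18, adjusted p = 0.19). Without WT 4 Slc5a1 fell by 1.09 in KO (adjusted p = 0.00111) and by 0.69 in AF2 (adjusted p = 0.0266). DESeq2 with all libraries gave adjusted p of 2.20e-05 in KO and 0.0309 in AF2.

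Within runs of library codes, the KO libraries stood beside WT 3 at 3766 CPM of Slc5a1 and WT 4 at 2418, and the AF2 libraries beside WT 5 at 4191 and WT 6 at 5245. The AF2 group therefore lay wholly below its own run's WT libraries and the KO group did not. With the run as a block, the log2 fold change of Slc5a1 was -0.70 in KO (edgeR adjusted p = 0.784) and -0.92 in AF2 (adjusted p = 0.0274). KO and AF2 share no run, so which of the mutants was lower for Slc5a1 cannot be told apart from the run, and with the block the AF2 to KO difference turned from 0.39 to -0.22.

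Slc2a2, which carries glucose, galactose and fructose across the basolateral membrane and lies at chr3:28697903-28731359 (plus strand), was 635 (lowest), 978 (median) and 1092 (highest) CPM in the WT duodenum. It was 775, 603, 734 and 559.6 CPM in KO, and the AF2 libraries had 963, 931, 730.1 and 781 CPM. WT 4, at 635 CPM, was the WT library that overlapped with KO, while the AF2 values overlapped with more of the WT range. The log2 fold change of Slc2a2 was -0.49 in KO (SE 0.14, edgeR adjusted p = 0.185) and -0.14 in AF2 (SE 0.14, adjusted p = 0.758). Without WT 4 it fell by 0.57 in KO (adjusted p = 0.0178) and stood at -0.21 in AF2 (adjusted p = 0.405). AF2 and KO differed by 0.35 (SE 0.15, unadjusted p = 0.0304, adjusted p = 0.434). The 3′ end of Slc2a2 overlaps a gene on the other strand, 1700112D23Rik, and 4.26% of the 31-base words in its last 500 bases occur elsewhere among transcripts, so its counts are less certain.

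Slc2a5, the fructose carrier of the apical membrane (chr4:150119283-150144169, plus strand), was the most uneven of the sugar carriers. Its WT levels were 861 (lowest), 1133 (median) and 2304 (highest) CPM, and WT 6 alone was above 1230.3. KO libraries had 1677, 692, 892 and 582 CPM and AF2 libraries 1227, 1010.4, 928 and 484 CPM. KO 1 was higher than 5 of the 6 WT libraries while KO 2 and KO 4 were lower than all of them, and AF2 4 was the lowest of all 14. The log2 fold changes of Slc2a5 were -0.38 (SE 0.38) in KO and -0.46 (SE 0.38) in AF2, with edgeR adjusted p of 0.743 and 0.707. These values were about as large as their errors, and the KO value turned to 0.16 with the run as a block. Without WT 6 the values of Slc2a5 were -0.12 in KO and -0.19 in AF2, and without KO 1 the KO value was -0.79.

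Sis, which encodes the enzyme that splits sucrose and the branch points of starch, was 2653 (lowest), 3772 (median) and 3997 (highest) CPM in WT. It was 2797, 2466, 2527 and 2022 CPM in KO, and the AF2 libraries had 3201, 2709, 2186 and 2412 CPM. All mutant libraries lay below 5 of the 6 WT libraries, whose lowest was 3420.0 CPM (WT 2), and WT 4 at 2653 CPM lay inside both mutant ranges. The means of Sis were 3599 ± 514 CPM (SD, n = 6), 2453 ± 321 CPM (SD, n = 4) and 2627 ± 439 CPM (SD, n = 4). The log2 fold change was -0.55 in KO (SE 0.13, edgeR adjusted p = 0.0898) and -0.45 in AF2 (SE 0.13, adjusted p = 0.144), and the mutants differed from each other by 0.10 (SE 0.14). Without WT 4 Sis fell by 0.62 in KO (adjusted p = 0.00847) and by 0.52 in AF2 (adjusted p = 0.0245). With the run as a block it stood at -0.43 in KO (adjusted p = 0.865) and -0.52 in AF2 (adjusted p = 0.0974).

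Mgam, the partner enzyme that releases glucose from starch fragments, was 3409.9 (lowest), 5701 (median) and 7326 (highest) CPM in WT. The KO libraries were close together at 4034, 4187, 4024 and 4277 CPM, and the AF2 libraries had 4761, 5682, 3479 and 4056 CPM. WT 4, at 3409.9 CPM, was the lowest of all 14 libraries, below every mutant library. AF2 2 lay inside the range of the other WT libraries and the remaining mutant libraries lay below it. The log2 fold change of Mgam was -0.47 in KO (SE 0.16, edgeR adjusted p = 0.283) and -0.35 in AF2 (SE 0.16, adjusted p = 0.405). Without WT 4 Mgam fell by 0.58 in KO (adjusted p = 0.0134) and by 0.45 in AF2 (adjusted p = 0.046). With the run as a block the KO value was -0.15 (adjusted p = 0.97) and the AF2 value -0.63 (adjusted p = 0.0681).

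Lct, the enzyme for the lactose that every group received (chr1:128284756-128328318, minus strand), was 108 (lowest), 404 (median) and 583 (highest) CPM in WT. It was 279.9, 297, 186 and 233 CPM in KO, and the AF2 libraries had 257, 255, 180.5 and 295 CPM. The WT libraries split widely: WT 1 and WT 4, at 108 and 159 CPM, were below every mutant library and the other WT libraries were above every mutant library. The log2 fold changes of Lct were -0.50 in KO and -0.51 in AF2 (SE 0.41 and 0.41, edgeR adjusted p = 0.677 and 0.689). The difference between the mutants was -0.01 (SE 0.45). The standard errors of Lct are close in size to the median fold change of the 10 genes, so a change of that size was not detectable here.

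Treh, which splits trehalose and lies at chr9:44673233-44686305 (plus strand), was 58.1 (lowest), 97.8 (median) and 132 (highest) CPM in WT. The KO libraries had 57.3, 97.8, 81.1 and 69.4 CPM and the AF2 libraries 93.4, 102, 83.5 and 83.2 CPM. KO 1 and WT 4 were the lowest libraries, and the AF2 values lay inside the WT range. Its log2 fold change was -0.33 in KO (SE 0.17, edgeR adjusted p = 0.458) and -0.08 in AF2 (SE 0.17, adjusted p = 0.896). The 3′ end of Treh overlaps Phldb1 on the other strand, and since the sources do not say whether strand was used in counting, reads of the 2 genes may be mixed.

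Alpi, the alkaline phosphatase of the intestinal brush border, was the gene with the largest log2 fold change and the lowest adjusted p of the 10 in AF2. Its WT levels were 2225 (lowest), 4025 (median) and 4613 (highest) CPM, and WT 4 held the lowest value while the next WT library had 3953. The AF2 libraries had 2306, 2855, 1690.0 and 2067 CPM and the KO libraries 2273, 3086, 2917 and 3999 CPM. Every AF2 library lay below the 5 other WT libraries, and AF2 3 and 4 lay below WT 4 as well. KO 4 was inside the upper WT range and KO 1 was close to WT 4. The means of Alpi were 3893 ± 864 CPM (SD, n = 6), 3069 ± 712 CPM (SD, n = 4) and 2229.6 ± 488 CPM (SD, n = 4), in the order WT, KO, AF2. The log2 fold change was -0.80 in AF2 (SE 0.20, edgeR adjusted p = 0.123) and -0.34 in KO (SE 0.20, adjusted p = 0.523). Between the mutants it was -0.46 (SE 0.21, unadjusted p = 0.0462, adjusted p = 0.492), so a difference between KO and AF2 was not shown.

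Without WT 4, Alpi fell by 0.91 in AF2 (edgeR adjusted p = 0.0108), and in KO it stood at -0.46 (adjusted p = 0.112). DESeq2 with all libraries gave an adjusted p of 0.00439 for Alpi in AF2. Within runs, the AF2 mean of 2229.6 CPM stood beside WT 5 and 6 at 3953 and 4519, and the KO mean of 3069 beside WT 3 and 4 at 4042 and 2225. With the run as a block the log2 fold change of Alpi was -0.93 in AF2 (adjusted p = 0.0993) and -0.03 in KO (adjusted p = 0.996).

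Anpep (chr7:79821803-79861059, minus strand) was 83.0 (lowest), 166 (median) and 296 (highest) CPM in WT. The KO libraries had 124, 122, 81.9 and 85.8 CPM and the AF2 libraries 123, 111, 178 and 162 CPM. WT 1 was far above the other libraries and WT 2 was among the lowest, so the WT libraries alone covered nearly the whole range. The log2 fold change of Anpep was -0.72 in KO (SE 0.30, edgeR adjusted p = 0.396) and -0.25 in AF2 (SE 0.30, adjusted p = 0.808). Without WT 1 the values of Anpep were -0.49 in KO and -0.016 in AF2. Slc15a1, the peptide carrier (chr14:121459621-121505252, minus strand), was 83.7 (lowest), 131 (median) and 188 (highest) CPM in WT. The KO libraries had 59.4, 163, 75.5 and 109 CPM and the AF2 libraries 158, 158, 93.9 and 112 CPM. KO 2 and AF2 1 and 2 lay inside the upper WT range and KO 1 was the lowest of all libraries. Its log2 fold changes were -0.43 (SE 0.30) and -0.07 (SE 0.30), with edgeR adjusted p of 0.613 and 0.96. Of the 31-base words in the last 500 bases of Slc15a1, 7.89% occur elsewhere among transcripts, so some of its reads may not be its own.

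No member separated the groups in the full set of libraries: 0 of 10 had all KO or all AF2 values outside the WT range, where 2.2% of all genes tested did so for KO and 2.73% for AF2, in either direction. Set against the other 5 WT libraries alone, Slc5a1, Slc2a2, Sis and Mgam lay wholly below in KO (3.69% of all genes did) and Slc5a1, Sis and Alpi in AF2 (3.75%). WT 4 was left out there for its low levels of these genes, so nothing is read from those counts. Between AF2 and KO 0 of the 10 separated, against 6.56% of all genes. There, 0 of the 10 were called by edgeR (background 0.015%, 2 genes) and 0 by DESeq2 (background 1.52%, 89 genes). Slc2a2 and Alpi, in opposite directions, were the 2 with an unadjusted edgeR p under 0.05, against 9.98% of all genes (1328). By group means, 7 genes followed the order WT, AF2, KO and Slc2a5, Lct and Alpi followed WT, KO, AF2, with no neighbours in either order differing at an adjusted p under 0.05. With the runs as a block, AF2 against KO was below 0 for 8 of the 10 (median -0.31, against 0.18 without the block), which turned the order of the mutants for Slc5a1, Sis, Mgam, Treh and Slc15a1.

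**Figure D3:**
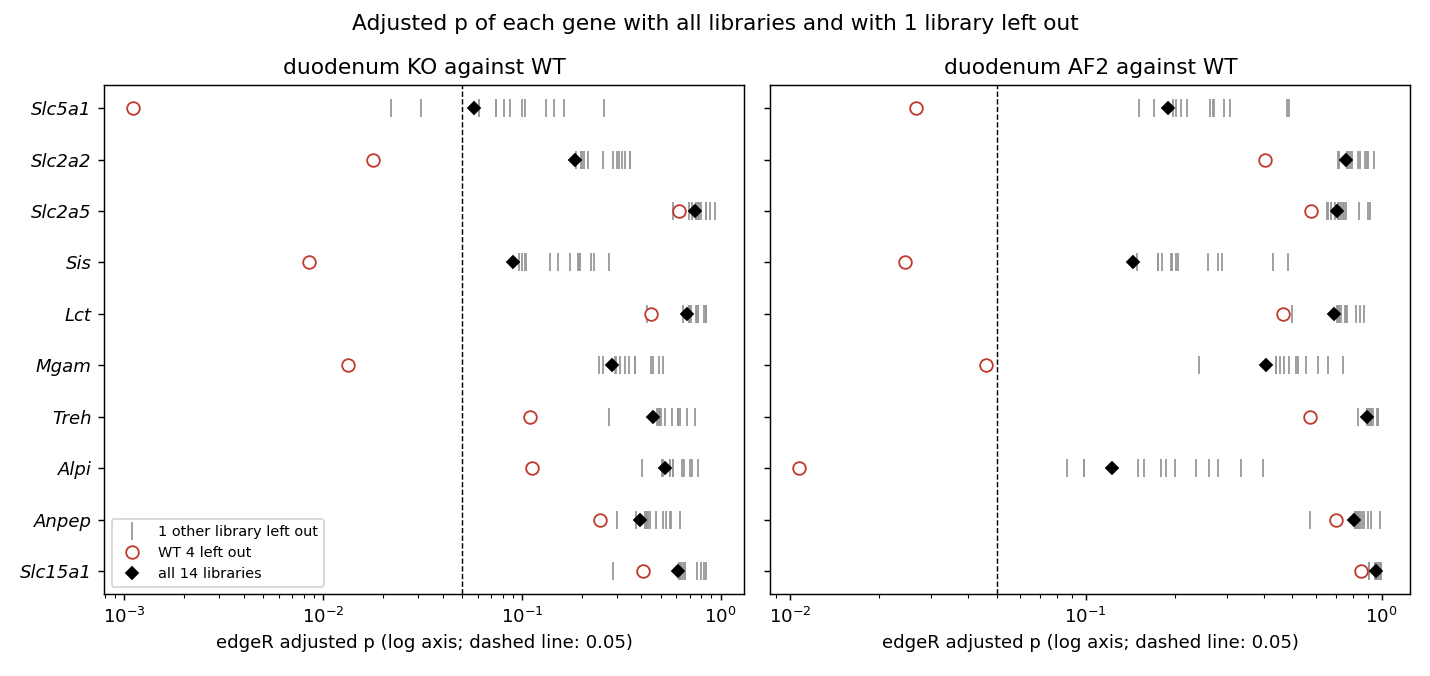
edgeR adjusted p (log axis) of each gene in the duodenum for KO against WT and AF2 against WT, with all 14 libraries (diamond), without WT 4 (open circle) and without each other library (ticks); the dashed line is 0.05. No diamond lies left of the line, and 4 open circles do in each panel, with 2 ticks of Slc5a1 in KO.

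Levels of the 10 genes followed one another to different degrees. Across the 14 duodenal libraries, which share depth and scaling, the correlation of each gene's log2 CPM with the mean of the other 9 was 0.93 for Mgam and for Slc5a1, 0.84 for Sis, 0.79 for Slc2a2 and 0.73 for Treh. It was 0.68 for Slc15a1, 0.58 for Alpi, 0.52 for Lct, 0.46 for Slc2a5 and 0.30 for Anpep. Of the 7002 other genes whose average log2 CPM reached 4, the 8 whose pattern was most like the members' mean were Stx3, Epha1, Dgat1, Mpp1, Cyb5b, Lpgat1, Apobec1 and 2010003K11Rik, with Pearson r from 0.92 to 0.94 over the 14 libraries. Stx3 encodes a protein of vesicle fusion at the apical membrane, and Dgat1 the last enzyme of triglyceride synthesis. They were picked for this likeness, so their levels are not a separate result.

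Markers of villus and other cells were summed in the same libraries. The summed level of the 10 brush border genes was 12632 to 24450 CPM in WT with a median of 20162, 13061 to 14142 in KO and 11696 to 16751 in AF2, and WT 4 held the lowest WT sum. The sum of the 10 villus enterocyte markers was 7648 to 18260 CPM in WT, 7132 to 11251 in KO and 9687 to 13668 in AF2. All 10 of these markers had a negative log2 fold change in KO and 9 of 10 in AF2, with 0 called in each. At an unadjusted p under 0.05 by edgeR there were 4 and 1, against 11.4% and 11.8% of all genes. All 8 Paneth cell markers had a positive log2 fold change in KO (median 0.95, 0 called, 8 at an unadjusted p under 0.05) and in AF2 (median 0.58, 0 called, 3 at that p), with sums of 2273 to 4193 CPM in WT, 3999 to 8271 in KO and 2571 to 7165 in AF2. All 14 proliferating crypt markers had a positive one in KO (median 0.38, 0 called, 4 at that p), and 9 of 14 in AF2 (median 0.11, 0 called, 2 at that p), with sums of 475 to 778 CPM in WT, 612 to 939 in KO and 511 to 810 in AF2. In AF2 the 8 smooth muscle markers were all positive (median 0.50, 0 called, 7 at that p), with sums of 435 to 720 CPM in WT and 663 to 884 in AF2. In KO 6 of the 8 were negative (median -0.09, 0 called, 0 at that p). Of 9 enteroendocrine markers, 7 were positive in KO (median 0.30, 0 called, 4 at that p) and 9 in AF2 (median 0.34, 0 called, 4 at that p). None of these markers was at 0 in duodenum.

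In whole tissue, fewer cells of a type and less RNA per cell cannot be told apart. Without WT 4, edgeR called Ezr lower, and Tyms and Defa22 higher, among these villus, crypt and Paneth markers in KO (1.74% of all genes called). In AF2 it called Mcm2 (crypt), Des, Cnn1 and Acta2 (smooth muscle) and Ghrl (enteroendocrine) higher (1.65%). No marker on these lists was called with all 14 libraries. WT 4 had the lowest villus sum and the highest Paneth sum in WT, so nothing is read from these calls. Pancreatic acinar markers summed to 44.1 to 20098 CPM within WT alone, and 0 of 11 had an unadjusted p under 0.05 in either mutant. The part of these cell types in the levels of the brush border genes was not tested.

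**Figure D4:**
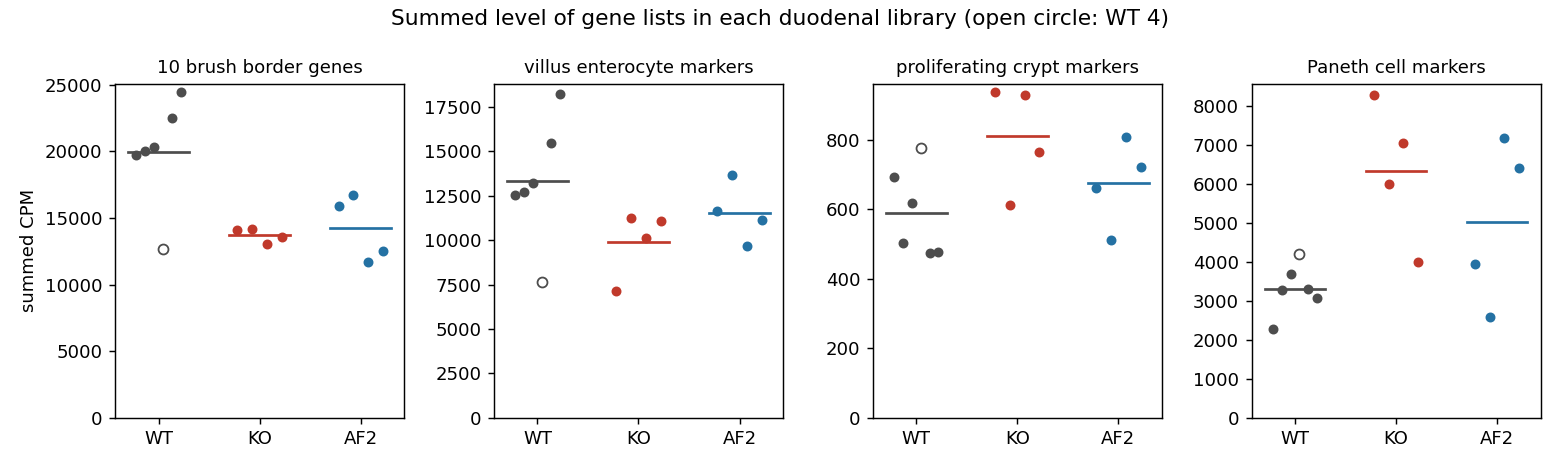
Summed level (CPM, linear axis from 0) of the 10 brush border genes and of the villus enterocyte, proliferating crypt and Paneth cell marker lists in each duodenal library, with a line at each group mean and WT 4 as an open circle. WT 4 has the lowest WT sum of brush border genes (12632 CPM) and of villus markers (7648 CPM), and the highest WT sum of Paneth markers (4193 CPM).

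Set against the villus markers of the same library, the genes differed from one another. The measure is the log2 ratio of a gene to the mean of the 10 villus markers, given as a description with no test. For Slc5a1 it was 1.77 to 2.06 in WT, 1.30 to 1.65 in AF2 and 0.95 to 1.89 in KO, so the AF2 libraries lay wholly below WT, while KO 1 lay inside the WT range. For Alpi it was 1.67 to 2.21 in WT, 1.89 to 2.26 in KO and 1.16 to 1.39 in AF2, so AF2 lay wholly below both other groups. Slc5a1 and Alpi were the 2 of the 10 genes below WT in every AF2 library by this measure, against 0.383% of all genes. No member was so in KO, against 0.0301% of all genes. By CPM the shares of all genes were 1.25% in AF2 and 1.04% in KO, with no member among them. The ratio thus changes the background as well. The members were not set against other absorptive cell genes by it, so no excess is read from these counts. By the ratio Alpi alone of the 10 lay below KO in every AF2 library, against 7.1% of all genes, so nothing is read from that gap. The mean ratio of Sis was 1.84 in WT, 1.73 in KO and 1.55 in AF2, and that of Mgam 2.49, 2.49 and 2.32, with overlapping groups in each case. By this ratio WT 4 was the highest WT library for Slc5a1 and Sis, and lay among the other WT libraries for Mgam and Alpi.

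**Figure D5:**
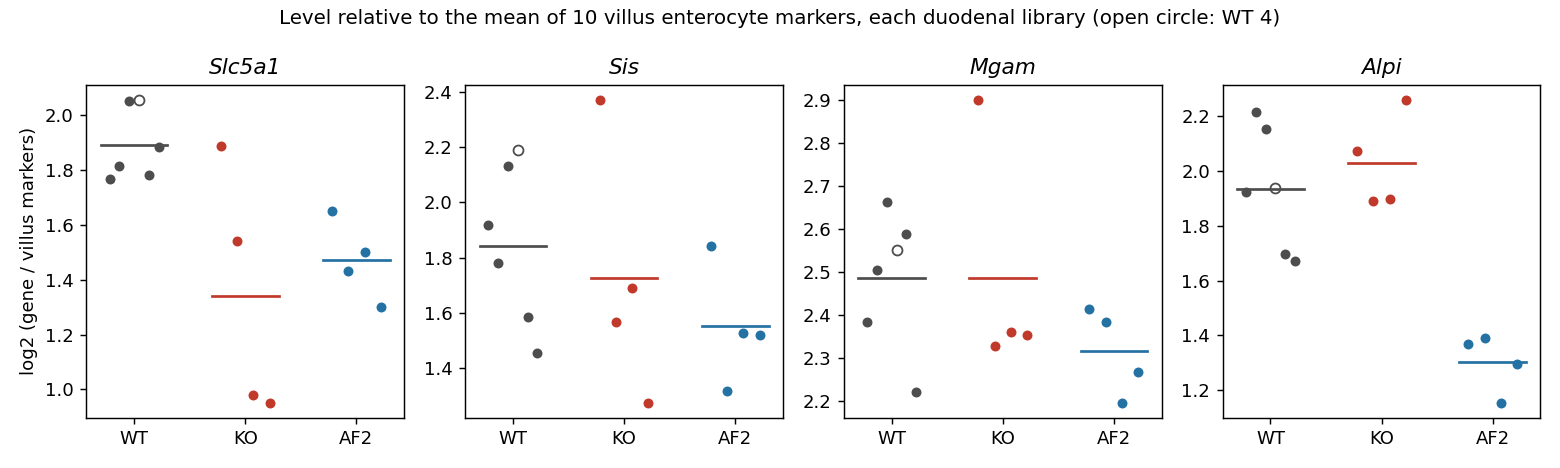
Log2 ratio of Slc5a1, Sis, Mgam and Alpi to the mean of 10 villus enterocyte markers in each duodenal library (axes do not start at 0), with a line at each group mean and WT 4 as an open circle. AF2 points lie below all WT points for Slc5a1 and Alpi (0.383% of all genes do by this ratio, and 1.25% by CPM). For Alpi they also lie below all KO points (7.1% of all genes do).

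Related genes were read from lists. For these lists, the share of all genes at an unadjusted edgeR p under 0.05 was 11.4% in KO and 11.8% in AF2. Of 13 other brush border peptidases and hydrolases tested, 12 had a negative log2 fold change in KO (median -0.41) and 12 in AF2 (median -0.41), with 0 called in each and 1 and 3 at an unadjusted p under 0.05. The smallest p in KO was that of Ggt1 (-0.30, adjusted p = 0.408) and in AF2 those of Ace (-0.70, adjusted p = 0.347) and Enpep (-0.68, adjusted p = 0.373), which trim angiotensin and other peptides. Of 21 other nutrient transporters of the absorptive cell, 19 were negative in KO (median -0.36) and 14 in AF2 (median -0.16), with 0 called and 8 and 4 at an unadjusted p under 0.05. Slc43a2, a carrier of large neutral amino acids, stood at -0.71 in KO (edgeR adjusted p = 0.066).

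Of 16 genes of fructose and glucose metabolism, 12 were negative in KO (median -0.23) and 13 in AF2 (median -0.24), with 0 called and 4 and 2 at an unadjusted p under 0.05. Pck2, a mitochondrial enzyme that makes phosphoenolpyruvate, stood at 0.58 in KO and 0.62 in AF2 (edgeR adjusted p = 0.221 and 0.167). Of 19 transcription factors of intestinal absorptive genes, 12 were negative in KO (median -0.09) and 15 in AF2 (median -0.27), with 0 called and 5 and 8 at an unadjusted p under 0.05. Mlx, the partner of the sugar-responsive factor ChREBP, stood at -0.46 in KO and -0.48 in AF2 (adjusted p = 0.196 and 0.161). Without WT 4, edgeR called 3 of the transporters lower in KO (Slc7a9, Slc43a2 and Atp1b1), with 1.74% of all genes called. In AF2 it then called Slc7a9 and Slc3a1, which form a carrier of basic amino acids and cystine, and the factors Maf and Mlx lower (1.65%). WT 4 was singled out in part by its low levels of the brush border genes, so nothing is read from these calls.

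In kidney none of the 6 members tested passed edgeR in any comparison, against 0.844% of all genes for KO against WT, 2.71% for AF2 against WT and 0.333% for AF2 against KO. At an unadjusted p under 0.05 there were 1, 4 and 2 of the 6, against 10.5%, 14.5% and 11.5% of the 13502 genes. DESeq2 called Anpep in AF2 against WT (3.63% of all genes called) and no member in KO against WT (1.6%) or AF2 against KO (2.29%). The median log2 fold change of the 6 was -0.08 in KO and -0.24 in AF2.

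Anpep, a marker enzyme of the proximal tubule brush border, was 74.3 (lowest), 92.3 (median) and 117 (highest) CPM in the WT kidney, 83.4, 91.4, 119.8 and 130.5 in KO and 114, 163, 98.6 and 197 in AF2. The AF2 values of Anpep overlapped with WT and KO, with AF2 2 and 4 above every other kidney library. Its log2 fold change was 0.59 in AF2 (SE 0.18, edgeR adjusted p = 0.0957) and 0.16 in KO (SE 0.18, adjusted p = 0.814). Without AF2 3 Anpep rose by 0.73 in AF2, with an adjusted p of 0.0149 (2.21% of all genes called), while without AF2 4 the value of Anpep was 0.39 (adjusted p = 0.325). With the runs as a block it was 0.35 (adjusted p = 0.667).

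Slc2a2 was 181 (lowest), 218 (median) and 248 (highest) CPM in the WT kidney, 205, 238, 166 and 191 in KO and 164, 141, 195 and 172 in AF2, where AF2 1, 2 and 4 lay below every WT library. Its log2 fold change was -0.38 in AF2 (SE 0.12, edgeR adjusted p = 0.0879) and -0.13 in KO (adjusted p = 0.765). Slc5a1 was 86.0 (lowest), 111 (median) and 118 (highest) CPM in WT, 119, 88.5, 86.2 and 109 in KO and 98.3, 88.3, 93.2 and 71.4 in AF2. The AF2 values of Slc5a1 reached the WT range through WT 1 alone, the KO values overlapped with more of it, and its log2 fold change was -0.31 in AF2 (SE 0.12, adjusted p = 0.203) and -0.11 in KO (SE 0.12, adjusted p = 0.8).

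Slc2a5 was 128 (lowest), 141 (median) and 215 (highest) CPM in the WT kidney, 202, 163, 125 and 169 in KO and 119, 98.1, 125 and 142 in AF2. Its log2 fold change was -0.36 in AF2 and 0.09 in KO (edgeR adjusted p = 0.22 and 0.885), and -0.44 for AF2 against KO (adjusted p = 0.243). Mgam stood between 70.7 and 130.4 CPM and Treh between 12.1 and 34.2 CPM over all kidney libraries. Mgam had log2 fold changes of -0.28 in KO and -0.18 in AF2, and Treh of -0.05 and 0.19, all with an edgeR adjusted p of at least 0.415. The summed proximal tubule markers were 18639 to 22605 CPM in WT, 19017 to 21414 in KO and 14799 to 18771 in AF2, and markers of other segments were 3600.2 to 4421 in WT, 4616 to 5306 in KO and 4934 to 5712 in AF2. The part of this shift in the kidney levels of the members was not tested.

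Whether a genotype acted differently in the 2 tissues was tested in 1 fit of all 28 libraries, and is read for the 6 genes measured in kidney. The labels do not say whether duodenum and kidney libraries of 1 number share an animal, and the fit treats them as independent. edgeR called none for KO (background 0.0535%) or AF2 (background 0.381%). At an unadjusted p under 0.05 there were 3 for KO, against 7.99% of 14944 genes, and 1 for AF2, against 10.7%. For KO, Slc5a1 had the largest difference, -0.92 (SE 0.22, unadjusted p = 2.32e-04, edgeR adjusted p = 0.108), from its log2 fold change of -0.997 in duodenum and -0.11 in kidney. With the runs as a block this difference of Slc5a1 was -0.57 (adjusted p = 0.828). Without the duodenal library WT 4 the adjusted p was 0.0214, among 23 genes called (0.155%). DESeq2 with all libraries called Slc5a1 for KO (0.462% of all genes called) and no member for AF2 (1.51%). Anpep had differences of -0.91 for KO (SE 0.35, adjusted p = 0.472) and -0.85 for AF2 (SE 0.35, adjusted p = 0.365), with negative log2 fold changes in duodenum and positive ones in kidney in both mutants. Slc2a2 had -0.40 for KO (SE 0.19, unadjusted p = 0.0486, adjusted p = 0.62) and 0.23 for AF2.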

How the data were processed

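RNA was measured in 28 libraries, 14 of duodenum and 14 of kidney cortex. RNA was extracted with TRIzol, and QuantSeq libraries, which sample the 3′ ends of messages, were sequenced, per the labels' protocols. What the authors deposited is 1 table per tissue of raw counts by gene symbol, with sex, age and diet per the file headers. The submitters' processing notes name mm10 and limma 3.34.9, with no role given. Aligner, counting tool and strand setting: not given in the sources used here. All deposited values were even, so reads are counts divided by 2.

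Library codes matched columns to samples, and genotypes came from the titles. Libraries of the same group all differed beyond counting error (smallest chi-square per degree of freedom 1.96), and 0 pairs were identical. In R 4.3.3, edgeR 4.0.16 was run on the counts of each tissue with all 14 libraries in 1 fit, and with all 28 for comparisons between tissues: filterByExpr by group, TMM scaling, a robust quasi-likelihood F test, two-sided, with Benjamini-Hochberg adjustment over all genes and a threshold of 0.05. A standard error is the log2 fold change divided by the root of its F statistic. DESeq2 1.42.0 was an alternative, beside other filters and scalings, the counts divided by 2, blocks and each library left out in turn. The scripts were tested on simulated data. Symbols matched GENCODE vM21 for 97.2% of the duodenum and 97.3% of the kidney table. The list sums and ratios to villus markers use TMM-scaled CPM, the ratios on the log2 scale with a prior count of 2.

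The members, the gene lists and the tests were chosen with earlier results of these data known. The text names all 10 members and Vdr, from each other list the called genes (at most 4) or else those with the 2 smallest p, and the 8 genes most like the members' mean. The calls without WT 4 in the other lists were added after seeing the data. Not every gene the rule gives is printed, and 1 result is not reported here. Protein sequences were not used here.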

Additional observations from a re-analysis of the deposited data

Results flagged for a closer look

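Of 48 groups of 4 to 10 libraries examined for the members, 3 held a library far from the others, and chance alone marks about 1 group in 20. Alpi in the duodenal library WT 4 was 2225 CPM, where the nearest WT library had 3953 and the highest 4613. Slc2a5 in the duodenal library WT 6 was 2304 CPM, where the nearest had 1230.3 and the lowest 861. The same library held the highest sum of distal small intestine markers, 1619 CPM, where the other WT libraries had 483 to 1013. Slc5a1 in the kidney library WT 1 was 86.0 CPM, where the nearest had 109 and the highest 118.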

How the results depend on the processing

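The count of members called was the same under both edgeR scalings. Shares of all genes called are given in brackets. In duodenum, members called in KO against WT numbered 0 with all libraries (0.0226%), and 0 to 4 with 1 library left out (1.74% for the 4). They numbered 3 with DESeq2 (1.61%), 4 with no filter (0.827%) and 1 with counts divided by 2 (0.0704%). With the replicate number as a block there was 1 (0.015%). In AF2 against WT they numbered 3 with DESeq2 (2.07%), 3 with no filter (0.923%) and 1 with library runs as a block (0.985%). With 1 library left out there were 0 to 4 (1.65% for the 4). In kidney, AF2 against WT gave 1 with DESeq2 (3.63%), 2 with no filter (2.38%) and 1 with the replicate block (2.5%). With 1 library left out it gave 0 to 1 (2.21% for the 1). The tissue difference in KO gave 1 with DESeq2 (0.462%) and 0 to 1 with 1 library left out (0.155% for the 1). Slc5a1 alone was the member called under the replicate block in duodenum, and Anpep in kidney. The same-numbered libraries had correlations of -0.44 to 0.30 in duodenum (median -0.019) and -0.074 to 0.30 in kidney (median -0.0039). Libraries of different numbers had -0.41 to 0.52 (median 0.0099) and -0.26 to 0.18 (median 0.00084). At the median, same-numbered libraries were thus no more alike. These values cannot exclude that the numbers pair the genotypes within a tissue, and the labels do not say. Whether the numbers pair the tissues was not tested. With the replicate block the median log2 fold change of the members in duodenum was -0.27 in KO and -0.17 in AF2, with 10 and 8 of 10 below 0.

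Counts of all genes called also moved, and triplets below are in the order KO against WT, AF2 against WT, AF2 against KO. With DESeq2 they were 118 for KO and 152 for AF2 against WT and 89 for AF2 against KO in duodenum, 211 for KO against WT and 160 for AF2 against KO in kidney, and 66 (KO) and 178 (AF2) for the tissue difference. With no filter they were 215, 240 and 106 in duodenum, 252, 590 and 193 in kidney, and 23 for the tissue difference in KO. With runs as a block they were 1, 131 and 5 in duodenum, 25, 121 and 1 in kidney, and 3 and 33 for the tissue difference. With the compared groups alone they were 0 for AF2 against WT and 50 for AF2 against KO in duodenum and 177 for KO against WT in kidney. Counts divided by 2 gave 8 for KO in duodenum, and the replicate block gave 1 for AF2 against WT and 14 for AF2 against KO. With 1 library left out the counts ran from 1 to 229, 0 to 217 and 1 to 4 in duodenum, 38 to 206, 294 to 365 and 22 to 78 in kidney, and 0 to 23 and 19 to 123 for the tissue difference, the last for KO and AF2. The highest counts in duodenum and for the tissue difference were without the duodenal library WT 4. In kidney KO against WT was highest without AF2 4 and lowest without KO 4, and AF2 against KO was highest without WT 1 and lowest without KO 2. The cause of these shifts was not tested.

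With all libraries edgeR called no member between genotypes or for the tissue difference. Any log2 fold change of those comparisons that turned sign was therefore of a gene not called. With runs as a block AF2 against KO in duodenum became -0.48 for Mgam, -0.087 for Sis, -0.31 for Slc15a1, -0.22 for Slc5a1 and -0.30 for Treh. KO against WT became 0.16 for Slc2a5 in duodenum and 0.065 for Slc2a2 in kidney, the tissue difference in KO 0.34 for Mgam, 0.032 for Slc2a5 and 0.059 for Treh, and Treh in kidney -0.17 for AF2 against WT and -0.071 for AF2 against KO. With the replicate block Lct became 0.0011 for AF2 against KO, Slc15a1 0.15 and Treh 0.076 for AF2 against WT, and Treh 0.21 for KO against WT in kidney. With 1 library left out, AF2 against KO in duodenum ran from -0.12 to 0.12 for Lct, -0.0019 to 0.23 for Mgam, -0.0045 to 0.19 for Sis and -0.25 to 0.34 for Slc2a5. AF2 against WT ran from -0.17 to 0.068 for Slc15a1 and -0.18 to 0.025 for Treh. In kidney Slc2a5 ran from -0.025 to 0.20 for KO, and Treh from -0.19 to 0.082 for KO, -0.10 to 0.34 for AF2 and -0.041 to 0.41 for AF2 against KO. The tissue difference of Slc2a5 in AF2 ran from -0.29 to 0.15. Of the members' values under the alternatives, 1378 kept direction and side of the threshold and 33 newly passed it, while 35 turned sign. With all libraries members were called only between the tissues, so keeping the side mostly means staying uncalled.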
